A study of Homo sapiens with 20 samples.

Results

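Clonal lines grown from nickel-exposed BEAS-2B cells were compared with unexposed cells that carried the same regulator, ZEB1, at a like level. BEAS-2B is an immortalised line that derives from human bronchial epithelium. Of the 20 libraries in the series, 8 entered the comparison: all 6 labelled Ni_clone, and replicates 1 and 2 of the 4 labelled Control_3D. The controls were chosen by a measured value, a ZEB1 level above 5 CPM (read counts scaled to a common library size), and genes high in Control_3D replicate 1 but not in replicate 2 were left out. That removed 71 of 25411 genes, which held 0.034% of the reads of Control_3D replicate 1.

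The Ni_clone group (n = 6) holds 1 library per clone. Per the labels, cells that had been kept in nickel chloride for 6 weeks were plated sparsely without nickel, and colonies of single cells were picked and expanded without nickel. The control group, called ZEB1-high Control_3D here (n = 2), is unexposed BEAS-2B cells of the 3-day experiment. The unexposed libraries that the rule did not take were Control_3D replicates 3 and 4, called ZEB1-low Control_3D (n = 2), and Control_6W (n = 2), the unexposed cells of the 6-week experiment. The labels say nothing of separate cultures, so p-values measure the spread between these libraries, which may in part be technical. Past nickel exposure, time in culture, passage through single cells and handling cannot be told apart in this comparison.

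ZEB1 is a zinc finger repressor that binds E-box sequences in the promoters of epithelial genes such as CDH1, which encodes E-cadherin. It acts in the epithelial to mesenchymal transition (EMT), in which epithelial cells lose junctions and gain matrix and motility genes, together with the related factors ZEB2, SNAI1, SNAI2 and TWIST1. The title of the series ties nickel exposure to ZEB1. With ZEB1 present on both sides, the comparison asks what else distinguished the clones from unexposed cells.

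ZEB1 had 296, 156, 137, 189, 155 and 252 reads in clones 1 to 6, and 536 and 253 reads in the ZEB1-high controls. As TMM-normalised CPM, the scale of every level given here, it ran from 7.75 through a median of 9.32 to 14.5 CPM in the clones, against 12.1 and 12.4 CPM in the ZEB1-high controls. The other unexposed libraries had 1.05 and 1.78 CPM in ZEB1-low Control_3D and 0.992 and 0.600 CPM in Control_6W. The clones therefore overlapped the chosen controls and lay above the other 4 unexposed libraries. These levels are a description, since ZEB1 chose the controls, and genes whose level goes with ZEB1 are not independent of that choice.

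Totals ran from 16524990 to 20009974 reads in the clones, and were 45764825 and 20538658 reads in Control_3D replicates 1 and 2. Control_3D replicate 1 held transcripts that replicate 2 lacked or nearly lacked, and where they came from was not tested. Of the 71 genes left out, 9 were read-through symbols, whose reads the neighbouring genes share. Of the other 62, 58 also reached 1 CPM in a nickel-exposed library, Ni_3D replicate 1, 59 were under 1 CPM in Control_3D replicate 2, and 47 exceeded 1 CPM in no clone. They included the oestrogen-responsive genes GREB1, TFF1 and NPY1R, the luminal factor GATA3, the aromatase gene CYP19A1, and KRT19. The threshold, a 4-fold ratio with 0.1 CPM added, lay between FOXA1 with a ratio of 4.14 and SCIN with 4.12, which were left out, and RASD1 with 3.95 and TEX14 with 3.77, which were kept.

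CDH1 was among the genes left out, so the best known target of ZEB1 could not be tested. It had between 0 and 0.977 CPM in the clones, with a median of 0.485 CPM, against 11.6 CPM in Control_3D replicate 1 and 0.246 CPM in replicate 2. EPCAM, an epithelial adhesion molecule that was kept, ran from 1.70 to 5.43 CPM in the clones, against 6.04 and 2.26 CPM in the same controls, and was not called. Like many of the genes left out, it was also high in Ni_3D replicate 1, at 9.62 CPM. ZEB1-low Control_3D and Control_6W had 2.04 to 3.42 CPM. Its log2 fold change was -0.26, and 0.59 without Control_3D replicate 1, so EPCAM does not stand in for CDH1.

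Few genes passed the test, and nearly all of them were higher in the clones. With edgeR's quasi-likelihood test and Benjamini-Hochberg adjustment at 0.05, 22 of 14233 genes were called (0.155%). Of these, 20 rose in the clones (0.141%) and 2 fell (0.0141%), and 15 changed by more than 2-fold. The median log2 fold change over all genes was 0.03 and its median size 0.20, and 94.2% of genes lay within 2-fold. Among the 3550 genes of lowest level the median log2 fold change was 0.158, and among the 3550 of highest level it was -0.0176. At an unadjusted p under 0.05 the same test gave 2119 genes (14.9%), 1345 higher and 774 lower in the clones. DESeq2 called 602 genes (4.23%), 429 higher (3.01%) and 173 lower (1.22%), the 22 among them.

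The 22 calls sat at the edge of the threshold, and 20 of them shared the smallest adjusted p of edgeR, 0.0486. Without clone 1 the count was 38 and without clone 3 it was 8. Without any other single clone, or without either control, no gene was called, while between 985 and 2334 genes then had an unadjusted p under 0.05. With 1 control left, the clones alone give the spread in those fits. All 22 kept their direction in each of these fits.

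Among the genes called higher, SOCS1, the suppressor of cytokine signalling that inhibits JAK kinases, lies at chr16:11348274-11350039 (hg19, as in the files). It had 5.90, 4.72, 7.49, 4.90, 6.56 and 6.21 CPM in clones 1 to 6, against 1.44 and 1.87 CPM in the ZEB1-high controls. Every clone was above both controls, with a log2 fold change of 1.90 (SE 0.28, adjusted p = 0.0486, edgeR). Every clone was also above the other unexposed libraries, which had 2.22 and 2.25 CPM in ZEB1-low Control_3D and 2.31 and 1.56 CPM in Control_6W.

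ICAM1, the adhesion molecule that leukocyte integrins bind and a target of NF-kB, lies at chr19:10381517-10397291. It ran from 515 through a median of 758 to 967 CPM in the clones, against 246 and 243 CPM in the ZEB1-high controls, a log2 fold change of 1.65 (SE 0.21, adjusted p = 0.0486, edgeR). The other unexposed libraries did not share the low level: ICAM1 had 762 and 785 CPM in ZEB1-low Control_3D and 726 and 1083 CPM in Control_6W. The clones thus overlapped the unexposed libraries that the rule did not take and were apart from the pair that it took.

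SOCS1 and ICAM1 are shown with their promoters because both hold the E-box CAGGTG, the letters that ZEB1 is known to bind. The sequences are from RefSeq (GRCh38.p14, another build than that of the files), 250 bases before to 50 after the start, 5′ to 3′ on the gene's strand, with the E-box in capitals. They are chr16:11256155-11256454 on the minus strand and chr19:10270870-10271169 on the plus strand.
SOCS1: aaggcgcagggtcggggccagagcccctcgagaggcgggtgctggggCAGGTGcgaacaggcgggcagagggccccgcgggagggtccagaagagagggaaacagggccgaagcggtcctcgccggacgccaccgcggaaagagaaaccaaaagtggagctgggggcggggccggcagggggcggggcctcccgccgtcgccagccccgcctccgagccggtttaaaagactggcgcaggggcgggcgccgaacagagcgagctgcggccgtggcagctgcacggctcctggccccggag
ICAM1: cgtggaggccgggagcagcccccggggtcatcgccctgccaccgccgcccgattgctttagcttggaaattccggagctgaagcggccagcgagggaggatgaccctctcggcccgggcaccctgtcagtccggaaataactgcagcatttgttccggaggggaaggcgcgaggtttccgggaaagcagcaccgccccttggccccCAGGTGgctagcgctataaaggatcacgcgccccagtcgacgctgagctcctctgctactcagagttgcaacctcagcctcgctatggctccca

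In SOCS1 the E-box began at position -203 and in ICAM1 at -44 relative to the start. CAGGTG or its complement CACCTG was found in 7 of the 12 promoters on hand among the 20 genes called higher (58.3%), and in 0 of the 2 among the genes called lower. Of 10367 promoters of all genes tested, 1898 held it (18.3%). Over the wider set of 856 promoters of genes whose clones all lay above both controls the share was 20.9%, and over 1107 promoters of genes whose clones all lay below, 16.3%. The other promoters with the letters were those of MVP, ORAI3, CSPG4, VASN and LXN. A match is a description of the letters, and binding was not measured.

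Among further genes called higher, PHLDA1, a pleckstrin homology-like protein induced by growth factors, ran from 52.0 through a median of 77.8 to 92.2 CPM in the clones, against 21.8 and 25.9 CPM in the ZEB1-high controls (log2 fold change 1.72, SE 0.24). ETV5, an ETS factor downstream of ERK signalling, ran from 28.0 through 34.5 to 55.1 CPM in the clones, against 12.7 and 12.6 CPM in the ZEB1-high controls (log2 fold change 1.60, SE 0.24). Neither overlapped the controls of the comparison, but Control_6W replicate 2 exceeded every clone in both, at 203 CPM for PHLDA1 and 60.6 CPM for ETV5. PHLDA1 had 50.3 and 22.3 CPM in ZEB1-low Control_3D, under every clone, whereas ETV5 had 42.2 and 34.2 CPM there, within the clones' range. Their adjusted p was 0.0486 by edgeR, as for the genes that follow, save where another is given.

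PLAU, the urokinase that activates plasminogen, ran from 90.5 through 103 to 137 CPM in the clones, against 49.2 and 40.6 CPM in the ZEB1-high controls (log2 fold change 1.31, SE 0.19). CSF1, the macrophage colony stimulating factor, ran from 130 through 187 to 221 CPM in the clones, against 83.7 and 73.7 CPM in the ZEB1-high controls (log2 fold change 1.23, SE 0.20, adjusted p = 0.0493, edgeR). VASN, a membrane protein that binds TGF-beta, ran from 104 through 143 to 159 CPM in the clones, against 65.4 and 56.1 CPM in the ZEB1-high controls (log2 fold change 1.19, SE 0.19). In all 3 genes the lowest clone was above the higher of the controls. CSPG4, a membrane proteoglycan, rose by 1.28 (SE 0.20), C1QTNF1, a secreted protein with a C1q domain, by 1.53 (SE 0.23), and LXN, a carboxypeptidase inhibitor, by 1.19 (SE 0.19) on the log2 scale. No clone overlapped the ZEB1-high controls in any of these 6 genes. The other 4 unexposed libraries all lay within the clones' range in CSPG4 (261 to 314 CPM) and C1QTNF1 (73.1 to 103 CPM). Control_6W replicate 2 exceeded every clone in CSF1, at 335 CPM, and in VASN, at 221 CPM. In PLAU and LXN 3 of the 4 lay under every clone and 1 within their range.

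MVP, the major vault protein, ran from 141 through 185 to 207 CPM in the clones, against 79.3 and 64.9 CPM in the ZEB1-high controls (log2 fold change 1.38, SE 0.16). ORAI3, a store-operated calcium channel subunit, ran from 19.2 through 23.4 to 26.7 CPM in the clones, against 6.95 and 9.82 CPM in the ZEB1-high controls (log2 fold change 1.51, SE 0.21). Of the other 4 unexposed libraries, 3 lay within the clones' range in MVP and 1 in ORAI3. PML, the scaffold of nuclear bodies, ran from 150 through 181 to 193 CPM in the clones, against 103 and 106 CPM in the ZEB1-high controls (log2 fold change 0.81, SE 0.12). PML and SOCS1 were the 2 called genes whose clones all lay beyond all 6 unexposed libraries, and PML reached 121 CPM at most in the other 4. Over all genes tested, the clones lay above all 6 unexposed libraries in 146 (1.03%) and below them in 222 (1.56%).

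The rule for naming genes passed over 5 called genes, which are named because they complete the 22 and were chosen after their values were seen. IL4I1, an amino acid oxidase at a low level, ran from 1.93 to 4.46 CPM in the clones, against 0.451 and 0.344 CPM in the ZEB1-high controls (log2 fold change 2.90, SE 0.43). ICOSLG rose by 0.97, RPS27L by 0.90 (adjusted p = 0.0489, edgeR), APOL1 by 0.89 and SDCBP by 0.83 on the log2 scale. ICOSLG, RPS27L and APOL1 have close relatives in the genome and IL4I1 overlaps its neighbours' transcripts, so the division of reads is uncertain for these 4.

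Both genes called lower had the ZEB1-high controls above every other unexposed library. LTBP2, a matrix glycoprotein that binds fibrillin (chr14:74964886-75079034), had 9.43, 10.8, 19.1, 8.54, 13.3 and 9.77 CPM in clones 1 to 6, against 33.2 and 52.5 CPM in the ZEB1-high controls. It fell by 1.82 on the log2 scale (SE 0.28, adjusted p = 0.0486, edgeR). ZEB1-low Control_3D had 5.22 and 4.74 CPM, under every clone. QTRT1, the catalytic subunit that puts queuosine into transfer RNA, ran from 51.2 through 56.9 to 58.6 CPM in the clones, against 93.4 and 86.8 CPM in the ZEB1-high controls (log2 fold change -0.65, SE 0.10).

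**Figure D1:**
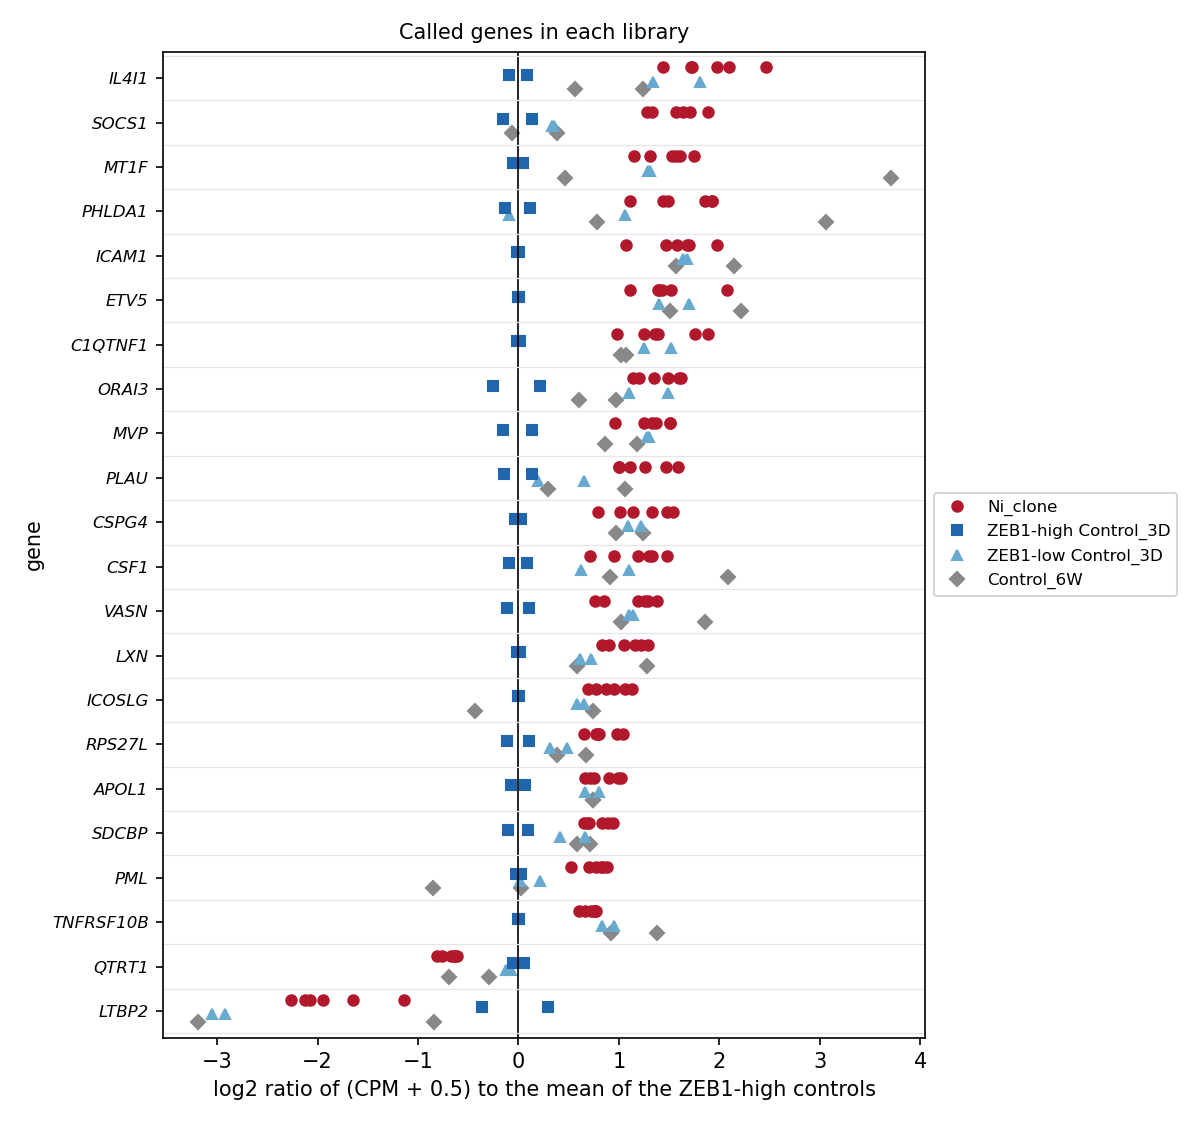
Log2 ratio of (CPM + 0.5) in each library to the mean of the ZEB1-high controls (x axis) for the 22 called genes (rows), with clones as red circles, ZEB1-high Control_3D as blue squares, ZEB1-low Control_3D as light blue triangles and Control_6W as grey diamonds. In 18 of the 22 genes all 4 other unexposed libraries lie on the clones' side of the blue squares, and in 2, SOCS1 and PML, every clone lies beyond all 6 unexposed libraries.

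For most called genes the ZEB1-high pair was set apart from the other controls in the direction of the difference. In 18 of the 22 genes all 4 of the other unexposed libraries lay beyond both ZEB1-high controls on the side of the clones. The clones lay beyond at least 3 of those 4 libraries in 10 genes and beyond none of them in 6. These genes were called by their distance from this same pair, which favours such positions. The share over all genes tested was not computed, so the 18 are a description. The plot of the called genes by library shows these positions.

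The same held for many genes short of the threshold. All 6 clones lay above both ZEB1-high controls in 1215 genes (8.54%) and below both in 1396 (9.81%). Of the 1215, 638 (52.5%) had all 4 other unexposed libraries above the pair as well. Of the 1396, 651 (46.6%) had all 4 below it. Both sets were likewise chosen by their distance from the pair, so these shares too are a description.

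Set against each pair of unexposed libraries in 1 fit of 12 libraries, the clones gave the fewest calls against the ZEB1-high pair. Of 14339 genes, 18 were called against ZEB1-high Control_3D (0.126%), 1105 against ZEB1-low Control_3D (7.71%) and 1547 against Control_6W (10.8%), by edgeR. The 3 comparisons share the clones, and whether the numbers differ was not tested, since the pairs of Control_3D were split by a measured level. The median size of the log2 fold change was 0.21, 0.26 and 0.29 in the same order. Of the 18 genes and the 22 of the fit with 8 libraries, 12 were shared.

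The counts depended on single libraries. Against ZEB1-low Control_3D the count was 30 without Control_3D replicate 3 and 29 without replicate 4, and against Control_6W it was 129 without Control_6W replicate 2. It was also lower without clone 2 or 3 against ZEB1-low Control_3D (668 and 657) and without clone 2 against Control_6W (1006). Against ZEB1-high Control_3D it was 82 and 81 without Control_6W replicate 1 or 2, 35 without clone 1 or clone 5, 9 without clone 2, 5 without clone 6, and 0 without clone 4 or without any single Control_3D library.

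Against the mean of the 3 pairs of unexposed libraries, 1659 of 14339 genes were called (11.6%), 990 higher (6.9%) and 669 lower (4.67%). In that fit each pair has its own mean, so differences between the pairs are not part of the error, and the Control_3D libraries are still divided by their ZEB1 level. It shares the clones and the ZEB1-high pair with the comparison above. Some of the 22 genes called in the fit with 8 libraries were over the threshold here. By edgeR, ICAM1 had an adjusted p of 0.0659, ETV5 0.154, PHLDA1 0.216, VASN 0.241 and CSF1 0.241. LTBP2 had 0.650, MT1F 0.784 and TNFRSF10B 0.839, also by edgeR. Without Control_3D replicate 1, 2, 3 or 4 the count was 791, 1066, 734 or 921, and without clone 2 it was 1054.

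The clones as a group were nearer to the ZEB1-high controls than to the other unexposed libraries. As the root mean square log2 difference over tested genes, each clone's mean distance was 0.386 to 0.599 to the ZEB1-high controls, 0.507 to 0.627 to ZEB1-low Control_3D and 0.557 to 0.682 to Control_6W. In each of the 6 clones the order of these distances was the same. By correlation of log2 levels across genes, which are not independent replicates, clone 1 had r = 0.967 with ZEB1-low Control_3D and 0.9665 with ZEB1-high Control_3D, so the order was not kept there. The distance between the controls of a pair was 0.301 for ZEB1-high Control_3D, 0.311 for ZEB1-low Control_3D and 0.536 for Control_6W. The removal of genes higher in Control_3D replicate 1 than in replicate 2 took from the distance within the ZEB1-high pair, and no such removal was made for the other pairs. It could also take from the clones' distance to that pair. Of the 62 genes removed that were not read-through symbols, 47 exceeded 1 CPM in no clone. The pair was chosen by its ZEB1 level as well, so the order of the distances is not independent of the rule. Clone 1 was the farthest from the ZEB1-high controls and from the other clones (0.526), and clone 3 the nearest to the controls (0.386).

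**Figure D2:**
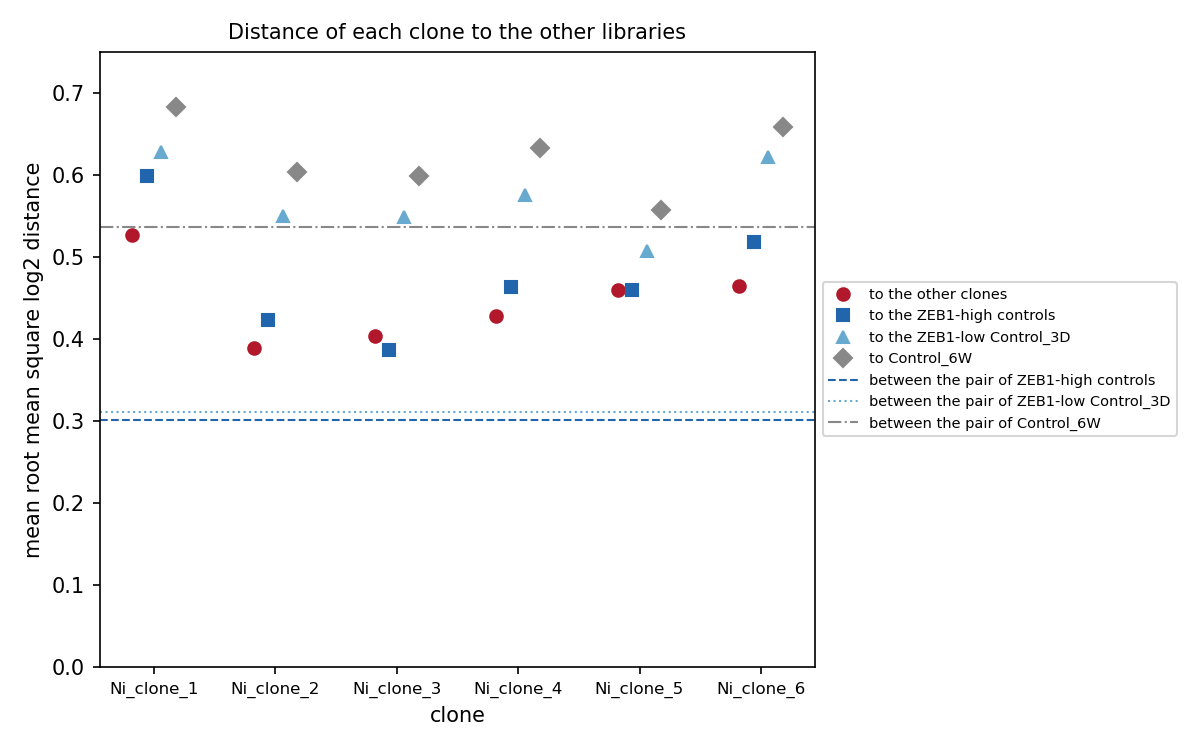
Mean root mean square log2 distance (y axis) of each clone (x axis) to the other clones (red circles), ZEB1-high Control_3D (blue squares), ZEB1-low Control_3D (light blue triangles) and Control_6W (grey diamonds), with lines at the distance between the libraries of each control pair. In every clone the blue square lies below the triangle and the diamond, and clone 1 has the highest blue square, 0.599.

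The EMT regulators and mesenchymal markers did not pass edgeR's test, while DESeq2 called 2 of 11 EMT transcription factors higher. SNAI2, the E-box repressor also called Slug, had 1.35, 6.01, 12.1, 9.40, 10.8 and 11.4 CPM in clones 1 to 6, against 2.50 and 3.63 CPM in the ZEB1-high controls. Of the clones, 5 were above both controls and clone 1 was below both, and the log2 fold change of 1.52 (SE 0.68) had an adjusted p of 0.336 by edgeR. The other unexposed libraries had 0.356 to 1.21 CPM. Its relative SNAI1 ran from 2.32 through 4.31 to 15.8 CPM in the clones, all above the 1.62 and 1.38 CPM of the ZEB1-high controls, with an adjusted p of 0.226. ZEB2 ran from 80.5 through 104 to 118 CPM in the clones, against 115 and 116 CPM in the ZEB1-high controls, and overlapped them.

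FN1, which encodes fibronectin (chr2:216279384-216300791), had 215, 1183, 2088, 665, 616 and 853 CPM in clones 1 to 6, against 3222 and 3117 CPM in the ZEB1-high controls. Every clone was below both, with a log2 fold change of -1.71 (SE 0.60), and the adjusted p was 0.240 by edgeR. Every clone was also above the other unexposed libraries, which had 162 and 104 CPM in ZEB1-low Control_3D and 119 and 170 CPM in Control_6W. VIM, the intermediate filament vimentin, ran from 1639 through 2170.3 to 3556 CPM in the clones, against 2797 and 2673 CPM in the ZEB1-high controls, and CDH2, which encodes N-cadherin, from 181 through 198 to 247 CPM, against 216 and 237 CPM in the ZEB1-high controls. Both overlapped the controls, with log2 fold changes of -0.20 for VIM and -0.07 for CDH2.

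**Figure D3:**
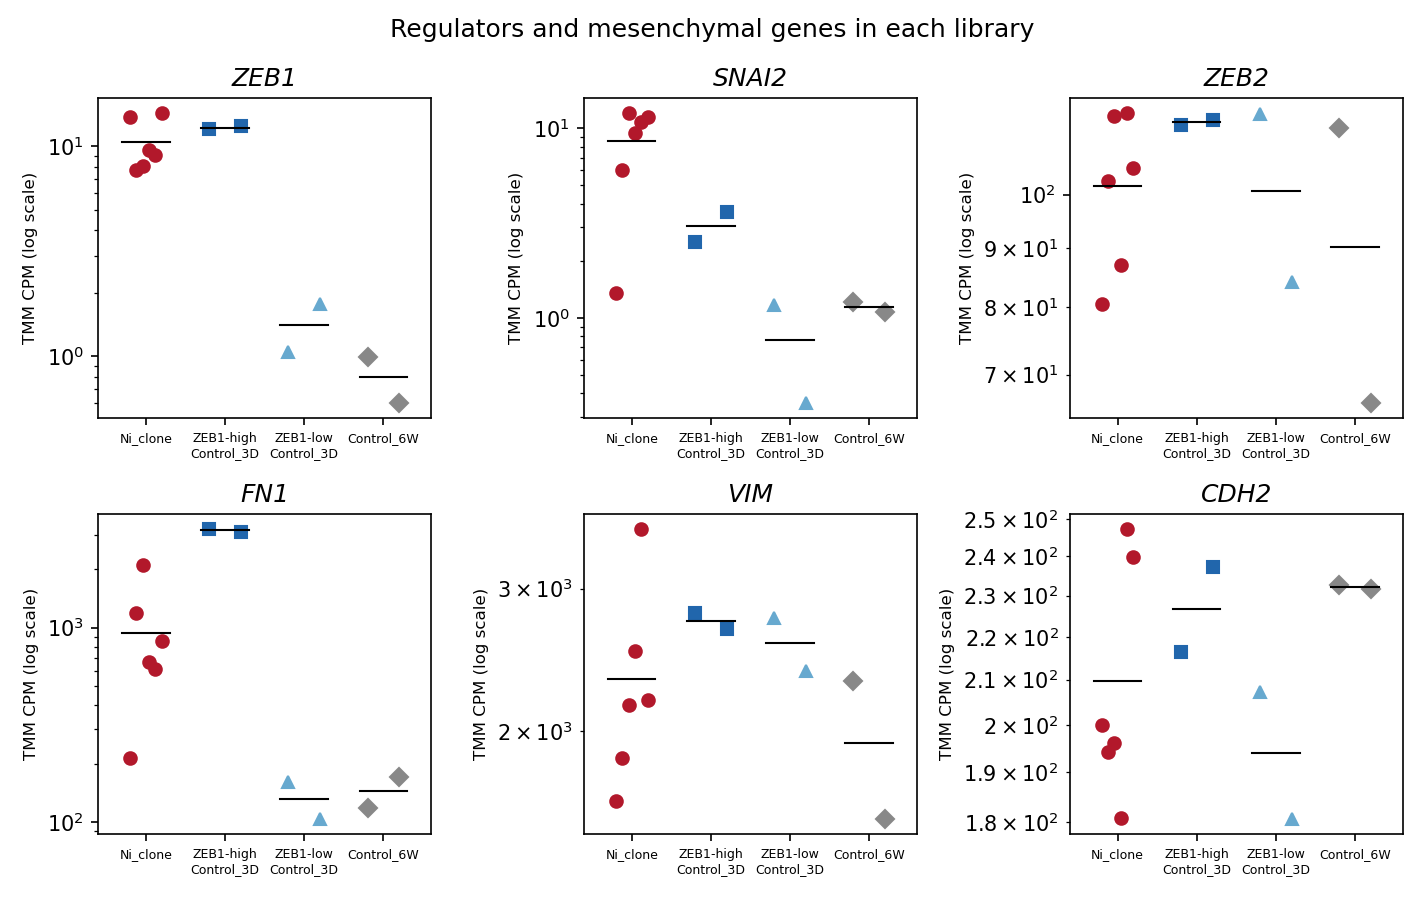
TMM-normalised CPM (y axes, log scale) of ZEB1, SNAI2, ZEB2, FN1, VIM and CDH2 in each library of Ni_clone, ZEB1-high Control_3D, ZEB1-low Control_3D and Control_6W (points), with black lines at the means. FN1 in the clones, 215 to 2088 CPM, lies under the ZEB1-high controls and above the other unexposed libraries, and SNAI2 is higher than in both ZEB1-high controls in 5 of the 6 clones.

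Of 39 gene lists, 5 held a gene called by edgeR, and the list of cytokines, chemokines and NF-kB targets had the highest median. NF-kB is the transcription factor that turns on inflammatory cytokines, and its target genes include its own inhibitor, NFKBIA. Of 31 members tested, 2 rose, ICAM1 and CSF1, and 29 did not pass edgeR's test. The median log2 fold change was 1.23, against 0.03 over all genes, and 30 of the 31 values were positive. In 15 members (48.4%, against 8.54% of all genes) all 6 clones were above both ZEB1-high controls, and in none were all below. DESeq2 called 15 members higher.

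IL1B, interleukin 1 beta (chr2:113587337-113594356), had 38.7, 30.9, 31.7, 52.9, 58.9 and 44.9 CPM in clones 1 to 6, against 7.76 and 13.5 CPM in the ZEB1-high controls. Its log2 fold change of 2.07 (SE 0.33) had an adjusted p of 0.0513 by edgeR. It was the single member of the list whose clones were all above all 6 unexposed libraries. The chemokine CXCL2 ran from 34.2 through 54.8 to 99.0 CPM in the clones, against 10.98 and 17.1 CPM in the ZEB1-high controls (log2 fold change 2.22, SE 0.46, adjusted p = 0.0992, edgeR). Interleukin 6, IL6, ran from 28.2 through 49.3 to 164 CPM in the clones, against 9.54 and 13.5 CPM in the ZEB1-high controls (log2 fold change 2.66, SE 0.75, adjusted p = 0.170, edgeR). The chemokine CXCL8 ran from 218 through 320 to 450 CPM in the clones, against 84.0 and 155 CPM in the ZEB1-high controls (log2 fold change 1.47, SE 0.36, adjusted p = 0.130, edgeR). CXCL2 is close in sequence to CXCL1 and CXCL3, so reads may be divided among them with error. None of these 4 genes overlapped the ZEB1-high controls, and none was called.

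NFKBIA ran from 109 through 130 to 152 CPM in the clones, against 118 and 123 CPM in the ZEB1-high controls, and NFKB1 from 67.6 through 89.5 to 105 CPM, against 76.8 and 74.9 CPM in the ZEB1-high controls, so both overlapped the controls. The subunits NFKB2 and RELB did not overlap, with log2 fold changes of 0.81 (adjusted p = 0.127) and 0.96 (adjusted p = 0.0960) by edgeR. The list was not apart from the other unexposed cells to the same degree: in the fit of 12 libraries its median was 0.34 against ZEB1-low Control_3D and 0.43 against Control_6W. Of the 15 members in which all clones were above both ZEB1-high controls, 8 had all 4 other unexposed libraries above them too, beside 638 of 1215 (52.5%) over all such genes. Without Control_3D replicate 2 the count of members with all clones above the control was 23, and without clone 1 it was 21.

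CXCL2 and IL6 are shown with their promoters (RefSeq, GRCh38.p14, 5′ to 3′), in which the NF-kB consensus is in capitals. They are chr4:74099146-74099445 on the minus strand and chr7:22726950-22727249 on the plus strand.
CXCL2: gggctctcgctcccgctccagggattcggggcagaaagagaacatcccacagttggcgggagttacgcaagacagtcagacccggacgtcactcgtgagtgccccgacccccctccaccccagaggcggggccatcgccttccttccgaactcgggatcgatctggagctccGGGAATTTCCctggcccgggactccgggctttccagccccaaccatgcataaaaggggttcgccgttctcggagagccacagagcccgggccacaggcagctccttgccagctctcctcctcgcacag
IL6: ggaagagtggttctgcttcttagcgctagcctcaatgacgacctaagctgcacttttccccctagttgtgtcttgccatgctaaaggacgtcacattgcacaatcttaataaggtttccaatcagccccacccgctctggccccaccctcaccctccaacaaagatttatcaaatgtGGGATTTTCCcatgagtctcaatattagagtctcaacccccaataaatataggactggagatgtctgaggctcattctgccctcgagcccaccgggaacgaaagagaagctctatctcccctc

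The consensus began at position -78 in CXCL2 and at -73 in IL6. It was found in 13 of the 25 promoters on hand for the list (52.0%), against 695 of 10367 promoters of all genes tested (6.7%). The list was drawn up to hold NF-kB targets, so this share follows from the choice of members and is not a result of these data. Among members with the consensus, CXCL2 and IL6 had all clones above both controls, while CXCL1, CXCL3 and NFKBIA did not. ICAM1 and IL1B, with all clones above, held no match to these letters, which must begin with GGG on either strand. The ICAM1 promoter printed above holds TGGAAATTCC, which differs from the pattern in its first letter. Lack of a match therefore does not mean that a promoter has no NF-kB site. The consensus was in 1 of 12 promoters of genes called higher, that of ORAI3. Among all genes whose clones lay above both controls its share was 9.23%, and among those whose clones lay below, 5.51%.

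**Figure D4:**
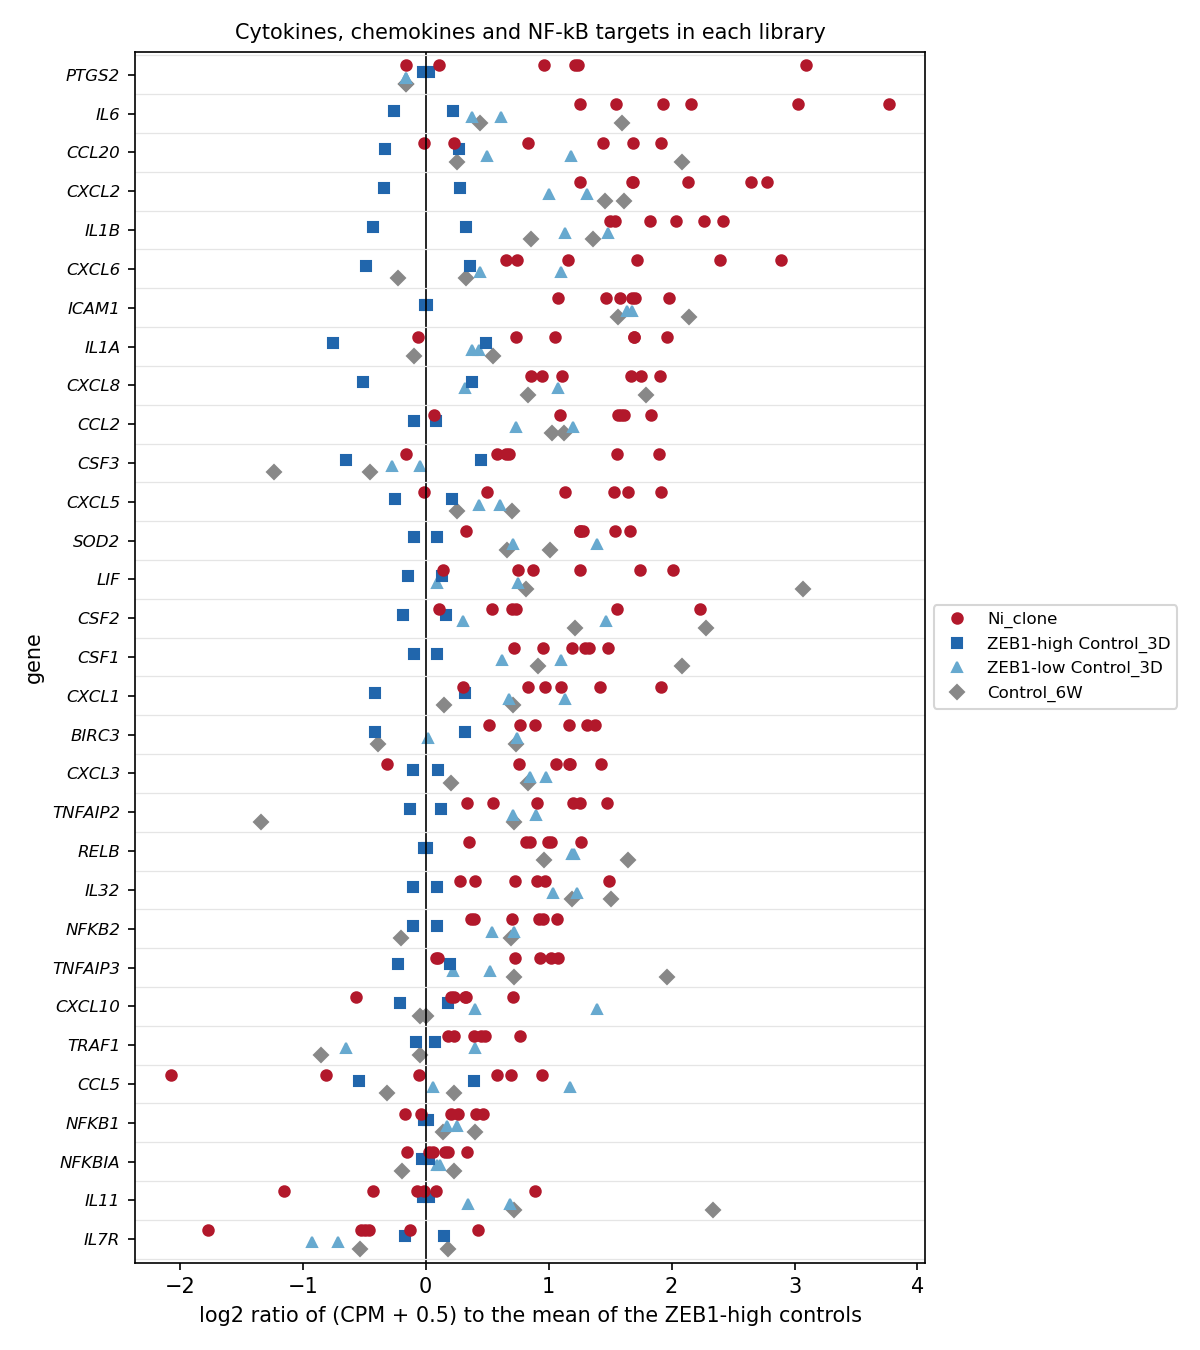
Log2 ratio of (CPM + 0.5) in each library to the mean of the ZEB1-high controls (x axis) for the 31 tested cytokines, chemokines and NF-kB targets (rows), with clones as red circles, ZEB1-high Control_3D as blue squares, ZEB1-low Control_3D as light blue triangles and Control_6W as grey diamonds. All red circles lie right of both blue squares in 15 members, and in IL1B they also lie right of every triangle and diamond.

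Among metal response genes, 1 passed the test. Metallothioneins are small proteins that bind zinc and other metals. Of 9 tested members of the list of metallothioneins and zinc transporters, MT1F rose and 8 were not called, with a median log2 fold change of 0.72. All clones were above both controls in 4 members (44.4%, against 8.54% of all genes). MT1F had 5.02, 3.13, 4.22, 4.50, 3.57 and 4.37 CPM in clones 1 to 6, against 1.20 and 1.08 CPM in the ZEB1-high controls, a log2 fold change of 1.90 (SE 0.29, adjusted p = 0.0486, edgeR). MT1E ran from 16.8 through 24.9 to 35.3 CPM, against 7.33 and 8.20 CPM in the ZEB1-high controls (adjusted p = 0.0536, edgeR). The clones were not apart from the other unexposed libraries: MT1F had 3.50 and 3.56 CPM in ZEB1-low Control_3D and 1.76 and 20.9 CPM in Control_6W. Clone 2 alone was under ZEB1-low Control_3D. Every clone was above Control_6W replicate 1 and below replicate 2. The list's median was -0.18 against ZEB1-low Control_3D and -0.71 against Control_6W. Metallothionein genes resemble each other closely, so reads may be divided among them with error.

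The list of matrix proteases and their inhibitors had 1 member called higher, PLAU, of 31 tested, and a median of 0.43. All clones were above both controls in 9 members (29.0%, against 8.54% of all genes). MMP2, a gelatinase, ran from 10.4 through 14.8 to 44.3 CPM in the clones, against 3.90 and 4.76 CPM in the ZEB1-high controls (log2 fold change 2.28, SE 0.61, adjusted p = 0.155, edgeR). The urokinase receptor gene PLAUR ran from 47.4 through 57.6 to 66.6 CPM in the clones, against 40.6 and 41.2 CPM in the ZEB1-high controls (adjusted p = 0.164, edgeR). Neither overlapped the controls.

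Of 40 matrix glycoproteins, LTBP2 fell and none rose by edgeR, while DESeq2 called 3 higher and 1 lower. The median was 0.14, with all clones above in 3 (7.5%, against 8.54% of all genes) and below in 5 (12.5%, against 9.81%). POSTN, periostin, was at 0 in 3 clones and reached 0.994 CPM at most, against 2.84 and 4.22 CPM in the ZEB1-high controls (adjusted p = 0.149, edgeR). FBN1, fibrillin 1, ran from 222 through 298 to 318 CPM in the clones, above the 199 and 172 CPM of the ZEB1-high controls and above every other unexposed library (adjusted p = 0.108, edgeR). Among 26 collagens edgeR called no gene and DESeq2 1 higher and 1 lower, and the median was -0.09. COL5A2 ran from 1.67 through 3.28 to 5.76 CPM in the clones, against 12.1 and 11.001 CPM in the ZEB1-high controls (log2 fold change -1.70, SE 0.33, adjusted p = 0.0769, edgeR), while the other unexposed libraries had 1.16 to 1.21 CPM.

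Of 23 p53 targets, TNFRSF10B, a death receptor for TRAIL, rose. It ran from 165 through 181 to 185 CPM in the clones, against 109 and 108 CPM in the ZEB1-high controls (log2 fold change 0.76, SE 0.10, adjusted p = 0.0486, edgeR). All 4 other unexposed libraries, at 194 to 282 CPM, were above every clone. CDKN1A, the p53-induced cell cycle inhibitor, ran from 72.9 through 196 to 224 CPM in the clones and overlapped the 125 and 107 CPM of the ZEB1-high controls.

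In the other 34 lists, of which 8 hold markers of other cell types, edgeR called no member. DESeq2 called up to 6 members of a list higher there (interferon-stimulated genes and hypoxia targets, 6 each) and up to 3 lower (heat shock genes and chaperones). All clones were above both ZEB1-high controls in 12 of 44 interferon-stimulated genes (27.3%, median 0.40), 8 of 23 NRF2 targets (34.8%, median 0.19) and 9 of 47 hypoxia and HIF targets (19.1%, median 0.38), beside 8.54% of all genes. In 10 of those 12 interferon-stimulated genes all 4 other unexposed libraries were above the pair as well. That was so in 4 of the 8 NRF2 targets and 3 of the 9 hypoxia targets, beside 638 of 1215 (52.5%) over all such genes. Against ZEB1-low Control_3D the median of the interferon list was -0.14, and against Control_6W it was 0.15. The iron storage subunit FTH1, an NRF2 target, ran from 767 through 1000 to 1504 CPM in the clones, against 431 and 541 CPM in the ZEB1-high controls (log2 fold change 1.15, SE 0.24, adjusted p = 0.0897, edgeR). Its partner FTL had a log2 fold change of 0.69 (adjusted p = 0.0841). P4HA1, a collagen prolyl hydroxylase of the hypoxia list, ran from 90.6 through 124 to 179 CPM in the clones, against 59.1 and 64.5 CPM in the ZEB1-high controls (adjusted p = 0.107, edgeR).

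Of the 39 lists, cytosolic ribosomal proteins had the highest share of members with all clones below. Of 38 genes edgeR called none and DESeq2 1 lower, the median was -0.22, and all clones were below both ZEB1-high controls in 12 (31.6%, against 9.81% of all genes). In 9 of these the clones were also below all 6 unexposed libraries, and the list's median was -0.45 against ZEB1-low Control_3D and -0.37 against Control_6W. RPS13 ran from 195 through 202 to 263 CPM in the clones, against 298 and 294 CPM in the ZEB1-high controls (adjusted p = 0.153, edgeR). Ribosomal protein genes have many processed copies in the genome, so their counts depend on how reads were assigned. Of 8 keratins, 2 had all clones below both controls (25.0%) and 1 had all above (12.5%, against 8.54% of all genes). Of 17 cadherins and protocadherins, 2 had all clones below (11.8%, near the 9.81% of all genes), with 3 positive values and a median of -0.33. Against the other unexposed libraries this list lay the other way. Its median was 1.13 against ZEB1-low Control_3D and 0.63 against Control_6W, beside 0.02 and 0.01 over all genes. Of 18 heat shock genes and chaperones, 4 had all clones below (22.2%), 3 of them with all 4 other unexposed libraries below as well. Among the 4 was HSPA8, the constitutive chaperone of the HSP70 family, which ran from 783 through 1052 to 1125 CPM in the clones, against 2019 and 1727 CPM in the ZEB1-high controls (log2 fold change -0.87, SE 0.15, adjusted p = 0.0552, edgeR).

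Of 36 tested epithelial junction and identity genes, with 6 left out and 6 too low, edgeR called none and DESeq2 4 higher and none lower. The median was 0.01. All clones were above both controls in 5 (13.9%, against 8.54% of all genes) and below in 1 (2.78%, against 9.81%). CLDN1, a tight junction claudin, ran from 145 through 189 to 226 CPM in the clones, against 83.9 and 99.5 CPM in the ZEB1-high controls (log2 fold change 1.07, SE 0.22, adjusted p = 0.0862, edgeR). LAMB3, a laminin chain of epithelial basement membranes, ran from 63.2 through 84.8 to 133 CPM in the clones, against 34.8 and 43.2 CPM in the ZEB1-high controls (adjusted p = 0.112, edgeR).

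**Figure D5:**
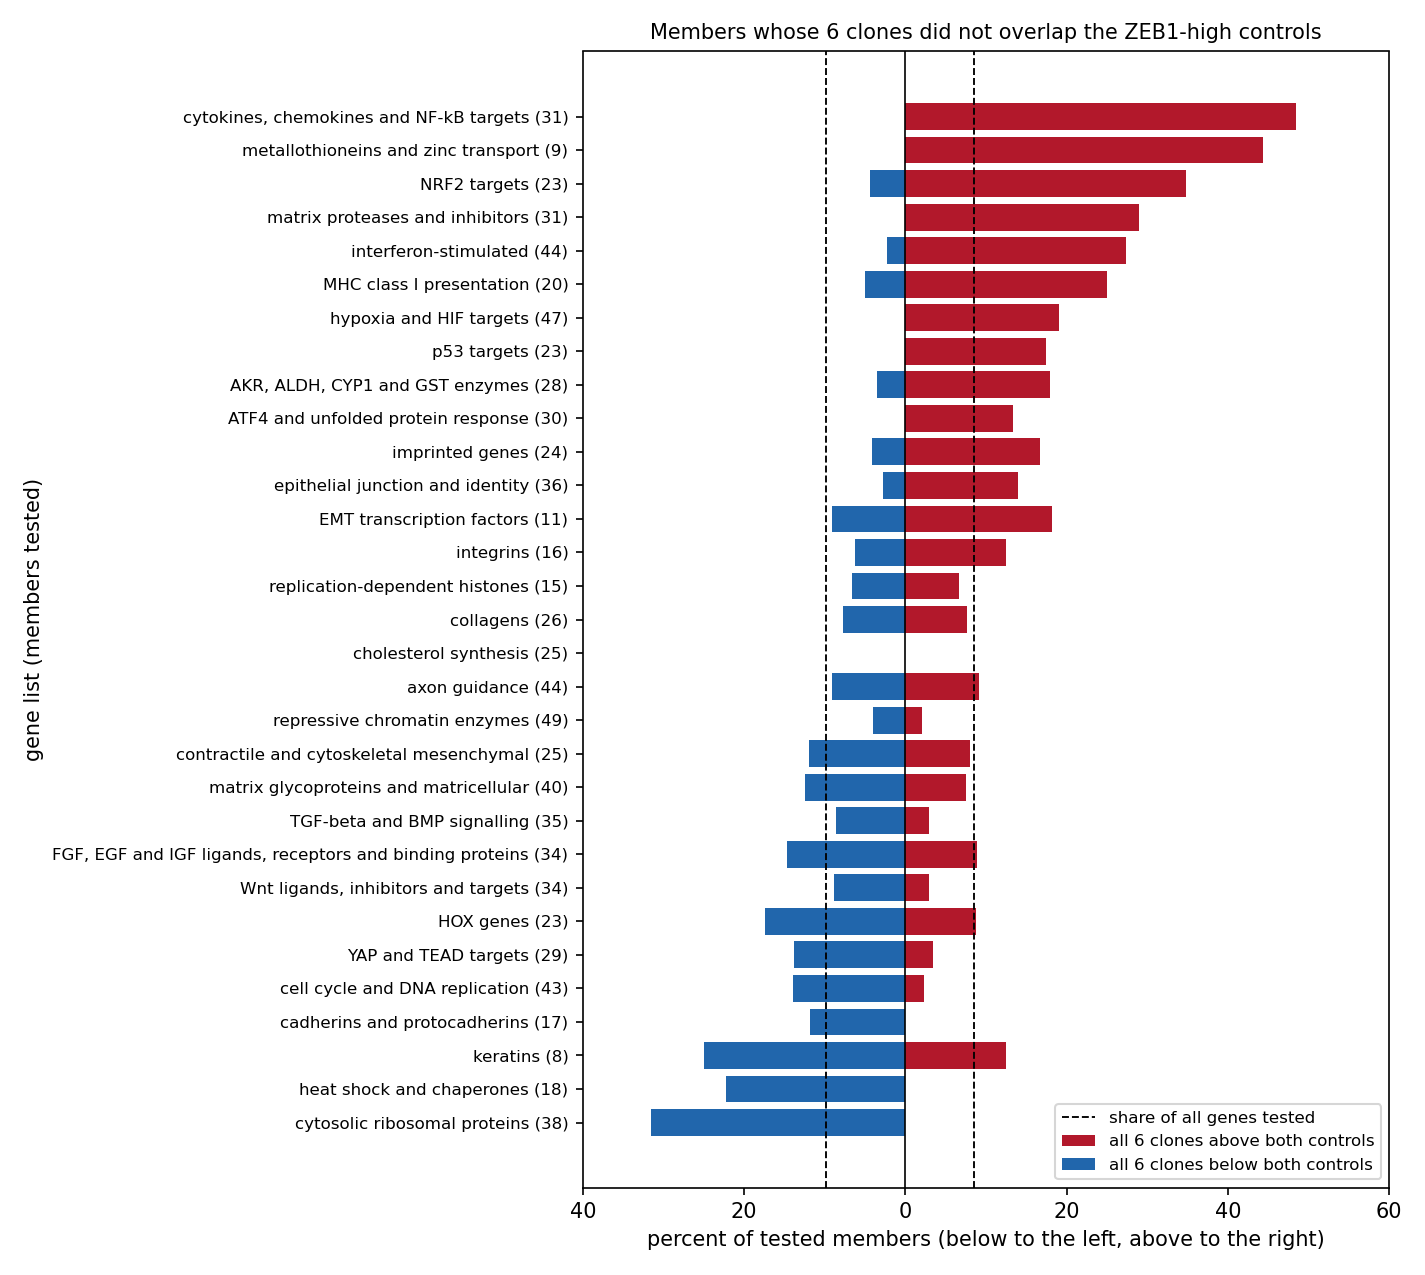
Percent of the tested members of each gene list (rows, number tested in brackets) whose 6 clones all lay above both ZEB1-high controls (red, to the right) or all below both (blue, to the left), with dashed lines at the shares of all genes tested, 8.54% and 9.81%. Cytokines, chemokines and NF-kB targets reach 48.4% above, and cytosolic ribosomal proteins 31.6% below.

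Markers of other cell types were checked by their summed levels. Basal airway markers summed to 399 to 464 CPM in the clones, against 400 and 427 CPM in the ZEB1-high controls. Ciliated and secretory airway markers were near 0, at 3.38 to 5.06 CPM in the clones, against 6.09 and 4.47 CPM in the ZEB1-high controls. Fibroblast markers summed to 2950 to 7601 CPM in the clones, against 3128 and 2426 CPM in the ZEB1-high controls. Of 14, 8 were tested, with a median log2 fold change of 0.63 and 7 of 8 positive. In none of the 8 were all clones above both controls, and in 1 (12.5%, against 9.81% of all genes) all were below. Immune cell markers summed to 44.1 to 96.2 CPM in the clones, against 46.2 and 43.5 CPM in the ZEB1-high controls, with 9 of 14 too low to test and 4 at 0 in all 8 libraries. The 5 tested had a median of 0.71, all positive, with all clones above both controls in 2 (40.0%, against 8.54% of all genes). Endothelial markers (8 tested) had a median of 0.65, with all clones above in 2 (25.0%, against the same 8.54%). Their part in the values of the cytokine list was not tested. Neuronal (10 tested) and alveolar (4) markers and those of breast luminal cells and oestrogen response (10 tested after 11 were left out) were the other lists of this kind. By edgeR no marker in any of these lists was called, whereas DESeq2 called 2 endothelial, 1 alveolar, 1 immune and 1 breast luminal marker higher.

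Chosen for that spread, the 8 genes that varied most over the clones were TMX2-CTNND1 and SPECC1L-ADORA2A, read-through symbols whose counts are uncertain, C19orf33, SELENBP1, COL1A2, NCAM1, MGMT and SLITRK5. COL1A2, a chain of type I collagen, had 0.279, 10.1, 20.4, 12.5, 25.5 and 97.6 CPM in clones 1 to 6, against 12.8 and 8.89 CPM in the ZEB1-high controls. MGMT, which repairs alkylated guanine, had 0.0464, 8.65, 2.46, 8.09, 1.52 and 17.9 CPM in clones 1 to 6, against 11.7 and 8.74 CPM in the ZEB1-high controls. NCAM1, a neural cell adhesion molecule, had 0.418, 3.23, 0.293, 8.90, 0.176 and 17.5 CPM in clones 1 to 6, against 6.00 and 4.03 CPM in the ZEB1-high controls. MGMT and NCAM1 had no reads in any of the other 4 unexposed libraries. SLITRK5 had 0.0929 CPM in clone 1, against 6.32 to 20.1 CPM in the other clones and 13.9 and 11.9 CPM in the ZEB1-high controls.

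Of the 6 clones, clone 1 had the lowest FN1, SNAI2, SNAI1, ZEB2, VIM, COL1A2, MGMT, SLITRK5, CSF1 and SDCBP. It had the highest ICAM1, ETV5, C1QTNF1, CSPG4, IL4I1, MT1F, QTRT1 and EPCAM. Counted per clone, 524 genes were more than 2-fold above both ZEB1-high controls in clone 1 (with 1 CPM added) and 296 more than 2-fold below both. In clones 2 to 6 the counts above were 205, 103, 271, 129 and 287, and those below were 70, 64, 63, 215 and 192.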

How the data were processed

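Libraries were made with a TruSeq kit from total RNA of BEAS-2B cells, per the labels' protocols. The authors deposited raw read counts per RefSeq gene for each library, with an RPKM value (scaled by gene length and library size, per the file headers) beside each count, which was not used for tests. The submitters' processing notes name STAR 2.4, DESeq, DESeq2 and the builds GRCh37 and hg19; how reads were counted and on which strand is not given in the sources used here. Libraries were joined by RefSeq identifier, because a spreadsheet had changed 28 symbols in 2 libraries. No pair of the 8 libraries agreed within counting error.

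The 8 libraries were fitted with edgeR 4.0.16 in R 4.3.3 (TMM, filterByExpr with a minimum count of 10 and total of 15, robust quasi-likelihood test) and called at a Benjamini-Hochberg adjusted p under 0.05. ZEB1 was not tested. A gene was left out when it had at least 1 CPM in Control_3D replicate 1 and at least 4 times the CPM of replicate 2, with 0.1 CPM added to both. Levels are CPM scaled by TMM over 20 libraries. Alternatives were DESeq2 1.42.0, voom of limma 3.58.1 with quality weights, other filters and controls, and leaving out each library. On simulated data for this comparison (14234 genes, 3 draws) edgeR recovered 49.8%, 82.4% and 93.1% of changes of 2-, 4- and 8-fold, with 9 false calls on average. Each draw used edgeR's own estimates of spread and planted 200 changes, so these shares need not hold for the real libraries.

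Members and gene lists were chosen with earlier results of these data known. The rule named the regulators ZEB1, ZEB2 and SNAI2, the cadherins CDH1 and CDH2, the markers EPCAM, FN1 and VIM, and the 12 largest rises and falls among calls with at least 5 CPM in 1 group and no overlap. To these came genes beyond all 6 unexposed libraries, up to 4 called members per list, the 8 most variable genes over clones and 12 genes left out. Other list members in the text were chosen after their values were seen. Promoters were searched on both strands for CAGGTG, the NF-kB consensus GGGRNWYYCC, TTCNNNGAA and TGANTCA. Here R is A or G, W is A or T, Y is C or T, and N is any letter.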

Additional observations from a re-analysis of the deposited data

Results flagged for a closer look

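ETV5 in clone 1, at 55.08 CPM, lay far from the other clones, of which the next had 37.11 CPM. COL1A2 in clone 6, at 97.63 CPM, did likewise, the next clone having 25.54 CPM. These were 2 of 40 sets of 6 clone values looked at, on the CPM scale, for a value far from the rest. Chance gives such a value in about 1 of 20 sets that were not chosen by their values. COL1A2 and the other most variable genes were chosen for their spread over the clones, so that rate does not apply to them.

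Many of the genes left out had no read in Control_3D replicate 2, and the 3 of them with the highest level in replicate 1 are given. CYP19A1 had 21.11 CPM of all reads in Control_3D replicate 1, TFF1 had 19.67 CPM and DSCAM-AS1 had 10.64 CPM. On the TMM scale the same genes had 29.9, 33.4 and 13.4 CPM in Ni_3D replicate 1 and at most 0.117 CPM in any clone.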

How the results depend on the processing

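Against the 22 calls, RLE size factors gave 22, edgeR without robust estimation 22, leaving out genes at 2 times 23 and at 8 times 22, and leaving out none 21. DESeq2 gave 602, no filter on low counts 101, voom with quality weights 116, all 4 Control_3D libraries as controls 10, Control_6W as controls 747 and all 20 libraries in the fit 7. Leaving out 1 library gave 0 to 38. With replicate numbers as a replicate block 39 genes were called, 6 of the 22 among them. Same-numbered libraries did not deviate together (r = 0.109 and -0.0285), and clone numbers name clones, so the numbers do not pair the samples.

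Against all 6 unexposed libraries, leaving out 1 library gave 734 to 1927 calls. In the fit of 12 libraries DESeq2 gave 503 calls against ZEB1-high Control_3D, 1911 against ZEB1-low Control_3D and 2350 against Control_6W, and leaving out 1 library gave 0 to 82, 29 to 1337 and 129 to 2150 calls in the same order. The voom, non-robust and 12-library alternatives were chosen after seeing the data.

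With Control_6W as controls the log2 fold change turned to 0.31 for EPCAM, 0.27 for VIM, 2.7 for FN1, 0.18 for ZEB2, -0.68 for PHLDA1, -0.27 for ICAM1, -0.38 for ETV5, -0.43 for CSF1, -0.35 for VASN, -1.45 for MT1F and -0.45 for TNFRSF10B. EPCAM ranged from -0.81 to 0.59 when 1 library was left out, the highest without Control_3D replicate 1, and turned to 0.12 with the replicate block and 0.1 with all 4 Control_3D libraries, where CDH2 turned to 0.03. The cause was not tested. Depth sets which genes were tested, since those under the count minimum were not.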
